A study of Homo sapiens with 22 samples.

Results

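Oxidative phosphorylation genes were followed through the reprogramming of human BJ fibroblasts, an established foreskin line, to induced pluripotent stem cells in microfluidic chambers. Genes were chosen by symbol alone: those of the NDUFA, NDUFB, NDUFC, NDUFS, NDUFV, UQCR and ATP5 families, SDHA to SDHD, the nuclear COX4 to COX8 subunits with a letter A, B or C, and the mitochondrially encoded MT-ND, MT-CO, MT-ATP and MT-CYB genes, without the NDUFAF assembly factors. This gave 103 of 33694 genes, of which 90 are nuclear and 13 are mitochondrially encoded. Of the nuclear genes, 9 match the pattern but were not counted as subunits (2 antisense transcripts, 2 read-through genes, the other proteins ATP5S and ATP5SL, and the copies ATP5L2, ATP5EP2 and UQCRHL), which leaves 39 nuclear subunits of complex I, 4 of complex II, 8 of complex III, 15 of complex IV and 15 of complex V. The pattern does not take in COX4I1, COX4I2, CYC1 and cytochrome c (CYCS), which belong to the same chain and are given apart.

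Cells of the D0 groups were collected untreated, ahead of any transfection. The D3, D5, D7, D9, D11, D13 and D15 groups had received mRNAs for POU5F1, SOX2, KLF4, MYC, LIN28 and NANOG. The series of 8 transfections ended on day 8, so that cells of D3, D5 and D7 had received only part of it, and the medium changed on day 9. All cells were of 1 line, kept in a hypoxia incubator during reprogramming, and frozen and thawed before capture. Each day had 2 pools, A and B, each made of cells from 4 chips, and these 16 pools were the replicates, so that p-values measure the spread between pools of 1 line. Transfection, growth medium and time in the chamber changed together between D0 and D3 and cannot be told apart. The hypoxia incubator is stated for reprogramming and not for the fibroblast culture before it, so a change in oxygen cannot be told apart from these either.

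The respiratory chain passes electrons from NADH (complex I) and succinate (complex II) through complex III and complex IV to oxygen, and complex V, the ATP synthase, uses the proton gradient that complexes I, III and IV build to make ATP. Mitochondrial DNA encodes a few core subunits of complexes I, III, IV and V, and all other subunits, complex II included, are nuclear, so the complexes need transcripts of both genomes. Fibroblasts respire actively, whereas pluripotent stem cells are known for relying largely on glycolysis.

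Of 44197 deposited barcodes, 41975 cells were kept, with 33181614 to 180056814 unique molecular identifiers (UMIs, counted transcripts) summed per pool. Cells over 10% mitochondrial UMIs were removed, which took 1.13% to 10.6% of the barcodes of a pool, and since the 13 mitochondrially encoded members are all the mitochondrial genes counted, this limit acts on them directly. Levels are given as CPM, the UMIs of a gene over all UMIs of the pool, scaled to the same total in every pool. Of 231 pairs of libraries, 168 shared cell barcodes, at most 41 barcodes or 1.63% of the smaller library. Fibroblast markers fell from 13360 and 13600 CPM on D0 to 2039 and 2502 CPM on D15, and markers of pluripotency rose from 91.2 and 93.0 CPM to 5908 and 6238 CPM. In such sums fewer cells of a type and less RNA per cell cannot be told apart.

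The 22 libraries fell into 2 kinds, and several members differed between them within the same pool. By the level of NME2, 8 libraries were low (6.08 to 24.1 CPM) and 14 high (37.5 to 457 CPM). Of 6 pools captured as 2 aliquots, 4 had 1 library of each kind, from the same frozen cells. The high-NME2 library was also the smaller capture in D7B (440 against 2063 cells), D9A (143 against 1599) and D11B (286 against 2996). In D9B it was the larger (889 against 764 cells). In D7B, D9A and D11B the kind of library and the size of the capture thus cannot be told apart. In these 4 pairs MT-ATP8, a small subunit of complex V, was higher in the high-NME2 library by a mean of 3.54 on the scale of log2(CPM + 1), MT-ND6 by 1.84, MT-ND4L by 1.58, MT-ND3 by 1.47 and MT-ATP6 by 0.67, each in all 4 pairs. MT-CO1 differed by 0.12 and MT-CYB by 0.14. Among nuclear members UQCRHL differed by 3.12, NDUFA13 by 1.16, NDUFA7 by 1.05 and ATP5I by 0.67, while COX5A was lower in the high-NME2 library by 0.35 (mean difference -0.35) and SDHD had a mean difference of -0.50. The median difference was 0.06 over all 12794 genes tested and 0.32 over the 13 mitochondrially encoded members. Both D0 pools came from low-NME2 libraries and both D15 pools from high-NME2 libraries. For the genes named here the kind of library and the day thus cannot be told apart in that comparison. A fit with the level of NME2 as a covariate assumes the same relation of a gene to that level on every day. Its values do not by themselves remove the kind of library. The aliquots of D5A had 106.2 and 110.4 CPM of NME2 but 802.8 and 3250 CPM of MT-ND3. Those of D5B had 110.5 and 415.1 CPM of NME2, and 2142 and 1660 CPM of MT-ND3. D3A was low and D3B high in NME2.

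**Figure D1:**
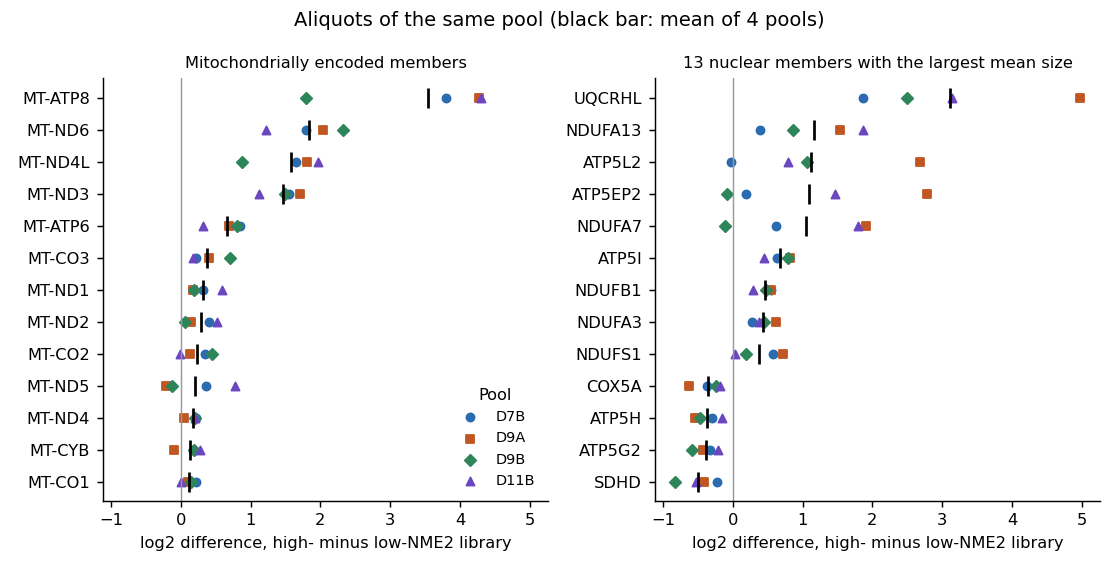
log2 difference of the level (CPM) between the high-NME2 and the low-NME2 library of the same pool, for the 13 mitochondrially encoded members and the 13 nuclear members with the largest mean difference in size. Each point is 1 of 4 pools and the black bar their mean; MT-ATP8 lies farthest from 0 among the former, with a mean of 3.54, and UQCRHL among the latter, with a mean of 3.12.

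Some of these genes share sequence, which limits what their counts mean. UQCRHL (chr1:15807169-15809348, GENCODE v44 on GRCh38) aligned to UQCRH (chr1:46303698-46316776) over 532 bases at 94.9% identity, and ATP5EP2 aligned to ATP5E over 156 bases at 96.2%. MT-ATP8 (chrM:8366-8572) and MT-ATP6 (chrM:8527-9207) overlap by 46 bases, shown because a read inside it fits both genes, at chrM:8527-8572 on the plus strand of hg38, with the start codon of MT-ATP6 in capitals.
MT-ATP8 and MT-ATP6 overlap: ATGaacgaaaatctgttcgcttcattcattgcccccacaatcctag
MT-ND6 lies on the minus strand, opposite to the other 12. Reads in shared sequence could be split between UQCRH and UQCRHL, ATP5E and ATP5EP2, or MT-ATP8 and MT-ATP6, so that the levels of these genes, the short copies above all, are uncertain.

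The mitochondrially encoded members took 3.09% and 3.42% of UMIs in the pools of D0, 2.93% and 4.76% on D3, 2.89% and 3.95% on D5, 4.01% and 4.05% on D7, 3.41% and 3.64% on D9, 4.30% and 3.73% on D11, 3.77% and 5.68% on D13, and 5.83% and 6.32% on D15. The pools of D15 lay above all others, and those of D3 spread around the level of D0. This share also differed between aliquots of the same pool. In the 4 mixed pairs it was 4.94%, 3.96%, 4.2% and 4.27% in the high-NME2 library and 3.80%, 3.34%, 3.19% and 3.64% in the low-NME2 library. It also differed within 1 kind: the aliquots of D5A, both high in NME2, had 2.441% and 4.581%, and those of D5B, also both high, 4.015% and 3.93%. With D0 low and D15 high in NME2, day and kind of library cannot be told apart in this share. D15 exceeded D0 by 2.82 percentage points and D3 exceeded D0 by 0.59, the latter with an SD of 1.29 between the pools of D3. The difference of D3 was -0.32 without pool D3B. These shares are given as a description, with no test. On D15, 10.7% and 11.9% of cells lay between 8% and 10% mitochondrial UMIs, just under the limit, against 0.619% and 0.906% on D0, and without the limit the D15 difference was 3.33 points. A list of 12 heat shock and dissociation genes summed to 3382 and 3462 CPM on D15, above every other pool (1456 to 2756 CPM). Of this sum the chaperone HSP90AA1 gave 3027 and 3142 CPM. Between D0 and D15, 6 of the 12 genes fell and 2 rose, where 26.7% of all genes fell and 26.8% rose. MALAT1, a transcript kept in the nucleus, had 38710 and 36500 CPM on D0 and 5980 to 17700 CPM in all other pools. The part of these genes in the D15 level was not tested.

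The 90 nuclear members together changed far less. They took 2.66% and 2.61% of UMIs on D0, 2.74% and 2.83% on D3, and 3.34% and 2.95% on D15, and the highest share in any pool was 3.54% in D13B. D15 exceeded D0 by 0.51 percentage points and D3 exceeded D0 by 0.15.

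**Figure D2:**
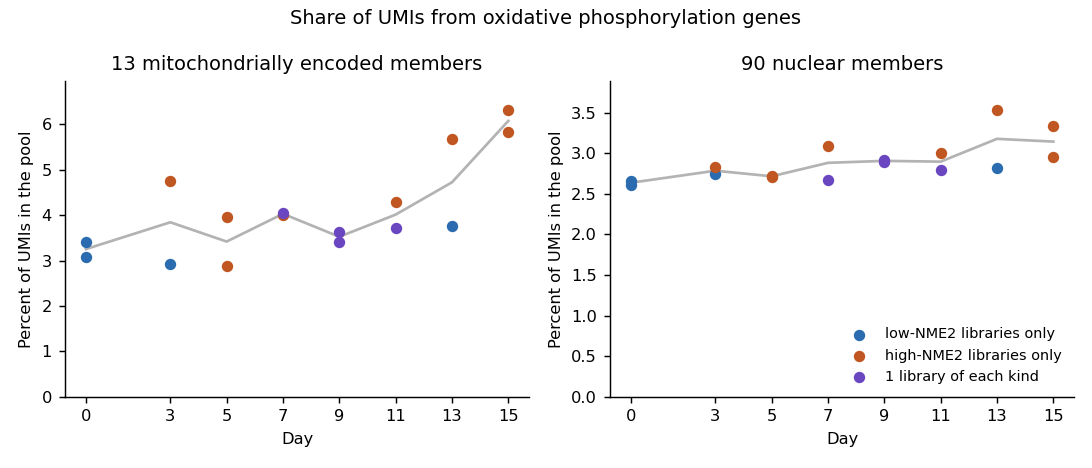
Percent of a pool's UMIs from the 13 mitochondrially encoded members (left) and the 90 nuclear members (right) by day. Points are pools, coloured by the kind of their libraries, and the line joins the means of the 2 pools; the pools of D15 reach 5.83% and 6.32% on the left, while all pools on the right lie between 2.61% and 3.54%.

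Of the members, 94 were detected in at least 5% of cells and were tested, 81 nuclear and all 13 mitochondrially encoded, within a fit over 12794 genes (edgeR quasi-likelihood test; a call needed both an adjusted p, by Benjamini and Hochberg, under 0.01 and a log2 fold change over 0.25 in size). The 9 others stayed low in all pools. They include the alternative subunits COX6A2 and COX7B2, known from muscle and testis, with at most 0.814 and 0.0533 CPM in any pool. COX8C reached 0.934 CPM, COX6B2 had 1.51 and 1.48 CPM on D0 and between 0.0951 and 1.30 CPM later, and NDUFA4L2, known as a hypoxia-induced relative of NDUFA4, had 1.05 and 1.20 CPM on D0 and 2.65 and 2.61 CPM on D15.

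Between D0 and D3, few subunit genes passed the test. Among nuclear members 5 rose (6.17% of 81) and 2 fell (2.47%), whereas of all genes tested 13.1% rose and 12.6% fell. The median log2 fold change was 0.11 over nuclear members and -0.06 over all genes, and its median size was 0.25 against 0.56. No mitochondrially encoded member was called by edgeR or by DESeq2, with 4 of 13 at an unadjusted p under 0.05.

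NDUFAB1 (chr16:23581014-23596316), the mitochondrial acyl carrier protein and an accessory subunit of complex I, had 170 and 172 CPM on D0, 384 and 299 on D3, 308 and 333 on D5, 417 and 329 on D7, 527 and 501 on D9, 333 and 378 on D11, 411 and 365 on D13, and 399.6 and 397 on D15. Every later pool lay above D0. It rose on D3 by 0.96 ± 0.16 (SE, edgeR, adjusted p = 0.00059), and by 1.16 ± 0.16 between D0 and D15 (adjusted p = 3.9e-05). COX5A (chr15:74919791-74938083), a nuclear subunit of complex IV, had 276 and 282 CPM on D0, 517 and 444 on D3, and 590.1 and 636 on D15, and no later pool came down to the level of D0. It rose by 0.75 ± 0.14 on D3 (edgeR, adjusted p = 0.0011) and by 1.07 ± 0.14 on D15 (adjusted p = 2.2e-05), although the high-NME2 aliquots read it lower. NDUFB9, an accessory subunit of complex I, rose by 0.69 ± 0.14 on D3. ATP5G3, one of the genes for the c subunit of the ATP synthase rotor, rose by 0.65 ± 0.15, and ATP5SL, now named DMAC2 and known as an assembly factor of complex I, by 0.85 ± 0.20. In the low-NME2 library of D3 against those of D0, without D3B, the log2 fold change was 1.08 for NDUFAB1 and 0.81 for COX5A.

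COX7A1 (chr19:36150922-36152449), the complex IV subunit form known from heart and skeletal muscle, had 218 and 206 CPM on D0 and 45.2 and 98.2 CPM on D3, a fall of 1.57 ± 0.40 on the log2 scale (log2 fold change -1.57, edgeR, adjusted p = 0.0079). ATP5E was not called on D3 (-0.39 ± 0.36), where it had 916 CPM in D3A and 1719 in D3B, but it was called with the level of NME2 as a covariate (-0.89). ATP5H, the d subunit in the stalk of the ATP synthase, had 415 and 422 CPM on D0 and 287 and 207 on D3 (log2 fold change -0.80 ± 0.21, adjusted p = 0.0094 in edgeR). Both pools of D3 lay below both of D0 for COX7A1 and ATP5H. All 7 calls on D3 rested on the spread pooled over 16 pools: with the 4 pools of D0 and D3 alone none passed, and without pool D0B none passed either, without D0A 1, without D3A 2, and without D9A or D9B 4. No share of all genes called is given for these refits, so the counts have no background to be read against.

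Among the mitochondrially encoded genes the pools of D3 disagreed. MT-ATP6 had 2804 and 3220 CPM on D0 but 2072 in D3A and 5746 in D3B, and MT-ND3 had 967 and 1153 on D0, 548 in D3A and 2837 in D3B. D3A, a low-NME2 library, lay below D0 for both genes and D3B, a high-NME2 library, above. Among low-NME2 libraries alone, where 31.9% of all genes were called higher and 40.3% lower, 2 of the 13 were called higher in D3A (MT-ND4L by 0.45 and MT-ND2 by 0.31) and 6 lower (MT-ND3 with a log2 fold change of -1.04, MT-ND6 with -0.93, MT-ATP6 with -0.62, MT-ATP8 with -0.46, MT-CO3 with -0.37 and MT-CYB with -0.30). That fit had a single library on D3 and took its spread from D0 and D9, the days with 2 such libraries. The high-NME2 libraries hold no D0.

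**Figure D3:**
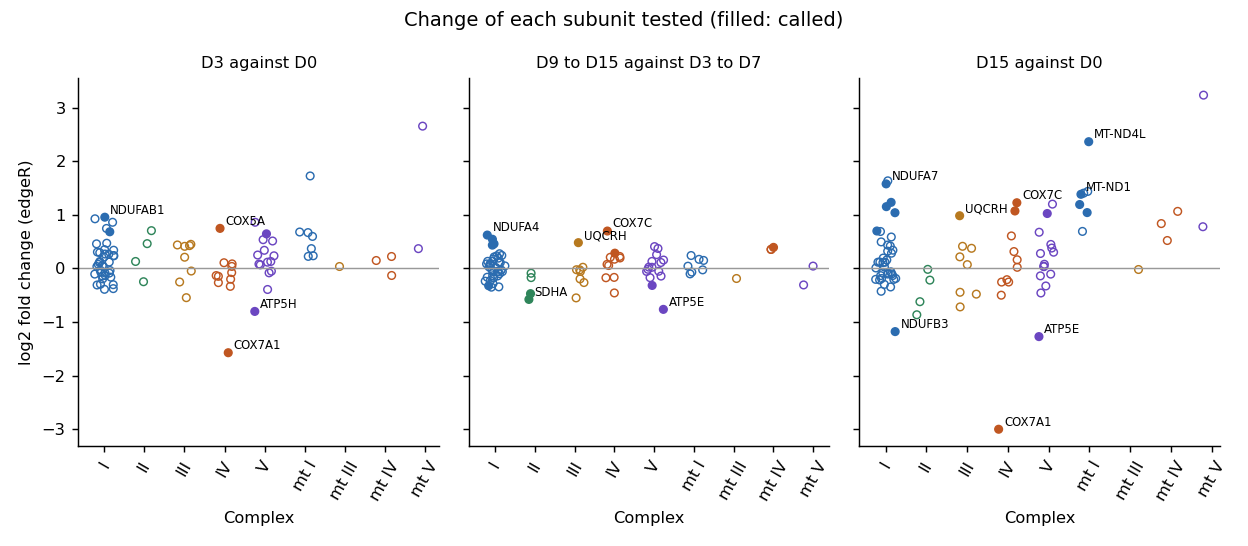
log2 fold change (edgeR) of each subunit gene tested, by complex, nuclear genes first and mitochondrially encoded genes (mt) after, for 3 comparisons. Filled points were called; COX7A1 lies lowest on D3 and D15 with -1.57 and -3.00, and no mitochondrially encoded gene is filled on D3.

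Promoter sequences of NDUFAB1 and UQCRH, members that rose, are shown because genes of the chain are known to share motifs of NRF1, ETS factors and YY1. RefSeq promoters of GRCh38.p14 (250 bases before to 50 after the start) were matched to 70 of 90 nuclear members and searched on both strands, each motif on its own, so that a promoter may hold several and motifs may overlap. The NRF1 core CGCATGCG was in 10 members (14.3%) against 2.02% of all 35116 promoters, the ETS core CCGGAAG in 18 (25.7%) against 10.3%, and the YY1 core ATGGCGG in 19 (27.1%) against 5.55%. Of 84 promoters of mitochondrial ribosomal protein genes 3.57% held the NRF1 core, 38.1% the ETS core and 28.6% the YY1 core, so that the last 2 were at least as frequent there. The 150 bases before the start follow, 5′ to 3′ on the strand of the gene, with any of these motifs in capitals, at chr16:23596317-23596466 (minus strand) and chr1:46303548-46303697 (plus strand).
NDUFAB1: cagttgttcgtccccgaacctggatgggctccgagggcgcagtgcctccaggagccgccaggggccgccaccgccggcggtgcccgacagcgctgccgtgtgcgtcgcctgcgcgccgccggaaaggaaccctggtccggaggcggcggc
UQCRH: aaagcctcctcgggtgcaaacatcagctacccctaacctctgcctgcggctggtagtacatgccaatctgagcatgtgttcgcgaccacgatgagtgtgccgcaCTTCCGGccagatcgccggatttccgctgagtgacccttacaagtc
UQCRH held 1 ETS core, on the opposite strand, and NDUFAB1 none of the 3 in this window. A match describes the letters and not a bound site.

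Within reprogramming, the pools of D9 to D15 were compared with those of D3 to D7. Of 81 nuclear members 8 rose (9.88%) and 5 fell (6.17%), against 21.0% and 22.5% of all genes. The count of 13 nuclear calls was 5 without pool D9B, 6 without D3A or D5A, 7 without D7B, and 8 without D7A, D9A, D11B, D15A or D15B. The share of all genes called with a pool left out is not given, so these counts have no background. The median log2 fold change was 0.02 over nuclear members and -0.02 over all genes.

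NDUFA4 (chr7:10931943-10940153), counted here with complex I by its symbol but known as a subunit of complex IV, had 614 and 613 CPM on D0, 730.2 to 1046 CPM in the 6 pools of D3 to D7 and 1181 to 1839 CPM in the 8 pools of D9 to D15, without overlap. It rose by 0.62 ± 0.12 (edgeR, adjusted p = 0.00057), and by 0.66 among high-NME2 and 0.52 among low-NME2 libraries. Fits within a kind took single libraries in place of pools, so aliquots of the same pool counted apart. Low-NME2 libraries hold no D5 and no D15, so their fit compared D9, D11 and D13 with D3 and D7. NDUFA6, an accessory subunit of complex I, had 209.7 and 208 CPM on D0, had 154 CPM in the lowest early pool (D5B) and ran from 203 to 325 CPM late. Its highest early pool, D3B, lay just below the lowest late pool, D9A, and it rose by 0.55 ± 0.10 (adjusted p = 0.00033 in edgeR). COX7C, a subunit of complex IV, ran from 736 to 1171 CPM early and from 1035 to 2737 CPM late, with overlap, and rose by 0.70 ± 0.18. Further rises were UQCRH (the hinge protein of complex III) by 0.48, NDUFV3 by 0.46, NDUFS5 by 0.44, ATP5S by 0.35 and COX5B by 0.29. Among high-NME2 libraries alone UQCRH had 0.52, NDUFS5 0.46 and ATP5S 0.30, of similar size but not called, and all 3 were called among low-NME2 libraries. COX5B was called in neither kind (0.33 high, 0.15 low) and in 9 of 26 alternatives. Of all 14 late calls, mitochondrially encoded ones included, 6 were also made among high-NME2 libraries, where 18.3% of all genes were called higher and 18.9% lower, and NDUFA6 and NDUFA4 were called in every alternative that was run.

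ATP5E (chr20:59025475-59032345), the epsilon subunit in the stalk of the ATP synthase, had 1710 and 1711 CPM on D0, 916 to 1719 CPM from D3 to D7 and 548 to 1103 CPM from D9 to D15. It fell by 0.76 ± 0.19 on the log2 scale (log2 fold change -0.76, edgeR, adjusted p = 0.0043), and passed the test in each kind of library. Complex II, the succinate dehydrogenase that also serves the citric acid cycle, gave 2 of the falls. SDHA, its flavoprotein, had 47.7 and 43.2 CPM on D0, 33.3 to 70.1 CPM from D3 to D7 and 21.9 to 42.5 CPM from D9 to D15 (log2 fold change -0.58 ± 0.17, adjusted p = 0.0099 in edgeR), a call made in 10 of 26 alternatives and not among high-NME2 libraries alone (-0.47). SDHB, its iron-sulfur protein, had 80.7 and 79.4 CPM on D0, 102 to 168 CPM early and 63.4 to 115 CPM late (-0.47 ± 0.12, adjusted p = 0.0049 in edgeR), called in each kind of library and in 15 of 26 alternatives. Early and late pools overlapped for both. The membrane anchors SDHC and SDHD were not called, with -0.17 ± 0.12 and -0.09 ± 0.19. NDUFA12 and ATP5D, the delta subunit of the ATP synthase, fell by 0.32 each (log2 fold change -0.32), and among high-NME2 libraries alone the values were of similar size without a call, -0.36 and -0.31. Of the mitochondrially encoded members MT-CO1, the catalytic subunit of complex IV, was called, with 5907 to 7558 CPM early and 7676 to 11810 CPM late and a rise of 0.39 ± 0.11 (edgeR, adjusted p = 0.0077). It was called in 10 of 25 alternatives, being lost without any 1 of the pools D0A, D0B, D3A, D5A, D7A, D7B, D9A, D9B, D11A, D11B and D15B, and did not pass within either kind of library (0.37 among high-NME2, 0.23 among low-NME2 libraries). Among low-NME2 libraries alone, which hold no D5 and no D15, 30.6% of all genes were called higher and 31.9% lower. There 5 mitochondrially encoded members were called lower on D9, D11 and D13 than on D3 and D7. They had -0.50 for MT-ATP8, -0.34 for MT-ND4L, -0.33 for MT-ND1 and -0.28 each for MT-ND2 and MT-CYB. D3 and D7 had a single such library each. Among high-NME2 libraries, which do hold D5 and D15, none was called. With the level of NME2 as a covariate 3 were called higher late and none lower, MT-CO2 by 0.48, MT-CO3 by 0.47 and MT-CO1 by 0.44. The share of all genes called in that fit is not given, so this count has no background to be read against.

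The fit in edgeR called no member between adjacent days after D3. Over the 6 intervals, edgeR called 0 of 486 tests of nuclear members, with 22 at an unadjusted p under 0.05, and 0 of 78 tests of mitochondrially encoded members, with 2. DESeq2 called 1 and 0. Of all genes, 3.56% were called between D3 and D5, 2.06% between D5 and D7, 7.37% between D7 and D9, 4.09% between D9 and D11, 0.117% between D11 and D13 and 0.0860% between D13 and D15. The DESeq2 call was COX7A1 between D9 and D11, with 21.2 and 21.0 CPM on D9 and 105.0 and 57.0 on D11, a rise of 1.94 ± 0.41 that just missed the threshold in edgeR (adjusted p = 0.010). COX7A1 was thus lowest on D9 and intermediate on D11 and D13.

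Between D0 and D15, 11 nuclear members rose (13.6%) and 3 fell (3.70%), against 26.8% and 26.7% of all genes. In size, log2 fold changes had a median of 0.33 over nuclear members and of 0.96 over all genes. Beside NDUFAB1 and COX5A, the rises at 10 CPM or more included NDUFA4 by 1.24 ± 0.22 (edgeR, adjusted p = 0.00028), COX7C by 1.23 ± 0.33, NDUFV3 by 1.04 ± 0.22, ATP5G1 by 1.03 ± 0.23, UQCRH by 0.99 ± 0.20, ATP5SL by 0.98 ± 0.21, NDUFB9 by 0.70 ± 0.14 and ATP5S by 0.59 ± 0.17. Of the called nuclear members NDUFA7 rose most, by 1.58 ± 0.44, from 12.6 and 14.6 CPM to 56.3 and 28.7 CPM, but it is among the genes that moved with the kind of library, and it was not called with the level of NME2 as a covariate (1.33). With that covariate COX7C had 0.77 and ATP5S 0.54, also not called, and ATP5G1 had 0.66 and was called.

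COX7A1 fell most, from 218 and 206 CPM on D0 to 30.6 and 24.7 CPM on D15 (log2 fold change -3.00 ± 0.42, edgeR, adjusted p = 4.5e-05). Its paralog COX7A2 had 786 and 753 CPM on D0 and 1081 and 924 on D15 (0.32 ± 0.28, not called), and COX7A2L, known for its role in supercomplexes, had 185 and 187 CPM and then 157 and 168 (-0.25 ± 0.16, not called). ATP5E had 848 and 634 CPM on D15 (-1.27 ± 0.36, adjusted p = 0.0078 in edgeR), a call made in 12 of 24 alternatives. NDUFB3, an accessory subunit of complex I, declined from 247 and 242 CPM on D0 to 128 and 98.7 CPM on D15 (-1.18 ± 0.20, adjusted p = 0.00017 in edgeR). None of the genes of complex II was called on D15, with -0.86 ± 0.31 for SDHA, -0.62 ± 0.23 for SDHC, -0.22 ± 0.35 for SDHD and -0.02 ± 0.22 for SDHB. With the level of NME2 as a covariate SDHA had -0.40 and SDHB 0.34, again without a call. Of the other alternative subunits, COX6A1 (-0.21), COX6B1 (0.16), COX7B (0.61), COX8A (-0.50), ATP5G2 (-0.33) and ATP5G3 (0.45) were not called. COX7A1, NDUFB3, COX5A, NDUFAB1 and NDUFA4 were the 5 of 18 members called in every alternative that was run. Without pool D0B the count of nuclear calls was 5 in place of 14, and without D0A 9, with no share of all genes given for these fits.

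**Figure D4:**
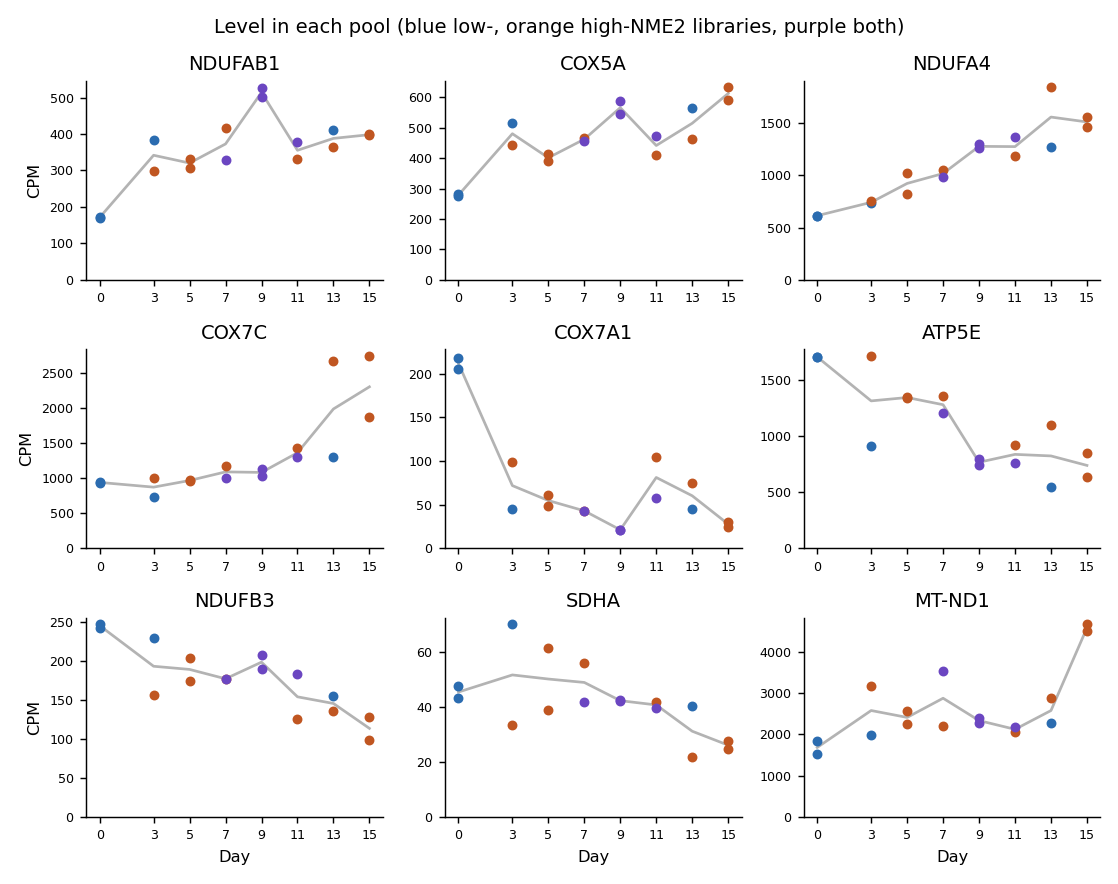
Level (CPM) of 9 members in each pool by day. Points are pools, in blue for low-NME2 libraries, orange for high-NME2 libraries and purple for pools with both, and lines join the means of the 2 pools of a day; NDUFAB1 and COX5A step up by D3, NDUFA4 climbs to 1464 and 1554 CPM on D15, and COX7A1 goes from 218 and 206 to 30.6 and 24.7 CPM.

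Among the mitochondrially encoded members 4 of 13 rose between D0 and D15 (30.8%) and none fell, a share near the 26.8% of all genes that rose. All 4 were subunits of complex I. MT-ND1 had 1525 and 1842 CPM on D0 and 4676 and 4506 on D15 (1.39 ± 0.28, edgeR, adjusted p = 0.00079). MT-ND2 went from 1715 and 2075 to 4230 and 4819 CPM (1.19 ± 0.24), and MT-ND5 from 418 and 457 to 989 and 895 CPM (1.04 ± 0.27). No pool of another day reached the D15 levels of these 3 genes, but the high-NME2 library of D7B by itself had 4178 CPM of MT-ND1, 4558 of MT-ND2 and 988 of MT-ND5, which for MT-ND2 and MT-ND5 lies between the pools of D15. MT-ND4L rose by 2.37 ± 0.69, called in 11 of 23 alternatives, with a log2 difference of 1.58 between kinds of library in the same pools. With the level of NME2 as a covariate MT-ND1 had 1.04, MT-ND2 0.94 and MT-ND4L 1.33, all called, and MT-ND5 0.66, not called. The 8 others apart from MT-CYB had positive log2 fold changes without a call, at 3.24 for MT-ATP8, 1.44 for MT-ND6, 1.41 for MT-ND3, 1.07 for MT-CO3, 0.84 for MT-CO2, 0.78 for MT-ATP6, 0.69 for MT-ND4 and 0.52 for MT-CO1. With the covariate these had 1.01 for MT-ATP8, -0.06 for MT-ATP6 and between 0.21 and 0.52 for the remaining 6. MT-CYB, the only mitochondrially encoded subunit of complex III, had 2505 and 2744 CPM on D0 and 2494 and 2954 on D15 (-0.01 ± 0.24). Without pool D0A none of the 13 was called, and without D0B, D15A or D15B 2 were called, again with no share of all genes given.

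The genes of the chain outside the symbol pattern and the genes that build it showed other counts. Cytochrome c (CYCS), the electron carrier between complexes III and IV, had 103 and 104 CPM on D0, 571 and 464 on D3 and 549 and 537 on D15, a rise of 2.28 ± 0.15 on D3 (edgeR, adjusted p = 1.3e-06). CYC1, the cytochrome c1 of complex III, rose by 1.18 ± 0.19, from 132 and 124 CPM to 345 and 250.4. COX4I1 was not called (0.16 ± 0.20), and of the 10 genes of the chain tested outside the pattern 4 rose and none fell on D3 and on D15. Of 77 mitochondrial ribosomal protein genes 35 rose (45.5%) and none fell on D3, with a median log2 fold change of 0.72. Of 27 genes that replicate, transcribe and process mitochondrial DNA and its RNA, 12 rose (44.4%) and none fell, of 21 assembly factors of complex IV 9 rose and none fell, and of 16 of complex I 6 rose and none fell. These shares stood beside 13.1% of all genes and 6.17% of the nuclear members, and the difference between lists was not tested. By D15, 30 mitochondrial ribosomal protein genes were higher than on D0 and 4 lower, and 16 genes of mitochondrial DNA expression were higher and 1 lower. The shares were 39.0% and 5.2% of the former and 59.3% and 3.7% of the latter, beside 26.8% and 26.7% of all genes. TFAM, which packages and transcribes mitochondrial DNA, had 24.5 and 23.1 CPM on D0, 101 and 139 on D3 and 128 and 105 on D15 (2.23 ± 0.26 by D15), and C10orf2, the helicase Twinkle, rose by 3.21 ± 0.22. MRPS26 (1.86) and MRPS17 (1.81) rose most among the ribosomal proteins, and MRPL24 (-1.12) and MRPS6 (-0.95) fell most.

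Of 19 genes of the citric acid cycle and pyruvate entry 1 rose (5.3%) and 6 fell (31.6%) late against early, beside 21.0% and 22.5% of all genes. By D15 2 rose and 2 fell, beside 26.8% and 26.7% of all genes, with a median log2 fold change of -0.36. With the level of NME2 as a covariate 5 rose and 2 fell, with a median of 0.26, and no share of all genes is given for that fit. Without the covariate PDHA1 (1.24) and CS (1.03) rose and PC (-2.10) and SUCLG2 (-1.66) fell. Of 13 regulators of mitochondrial biogenesis 4 rose (30.8%) and 3 fell (23.1%), near the shares of all genes, among them PPARGC1B (4.67) and PPRC1 (2.29) with rises and PPARA (-2.31) and PPARD (-2.03) with falls. Of 15 hypoxia response genes 3 rose and 4 fell (26.7%), no more than the shares of all genes, with ANKRD37 (1.57) higher, EGLN3 at 0.0360 and 0.0136 CPM on D0 and 20.4 and 19.6 CPM on D15, and NDRG1 (-2.56) and ADM (-2.18) lower. Of 16 assembly factors of complex I 7 rose (43.8%) and 2 fell (12.5%) by D15, and of 21 of complex IV 7 rose (33.3%) and 1 fell (4.8%), beside 26.8% and 26.7% of all genes. These included NDUFAF4 (2.15) and FOXRED1 (1.92) higher and NDUFAF3 (-1.21) and ACAD9 (-1.03) lower for complex I, and COA7 (2.59) and PET117 (2.18) higher and COX14 (-0.82) lower for complex IV.

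Cells of the same pools were then compared by class, so that both classes share day, medium and pool. The chip of a cell within its pool is not known. From D9 to D15 each cell was called somatic-like or developmental-like from its share of pluripotency marker UMIs among all UMIs of fibroblast and pluripotency markers (at most 0.2 or at least 0.6), limits chosen after the values were seen. The classes are ranges of this share and not cell types. In the 7 pools with at least 50 cells of each (D15A had 49 somatic-like cells) there were 5495 somatic-like and 8519 developmental-like cells, and 3142 in between, with 473 cells of each class within 0.05 of a limit. Median UMIs per cell were 39250 and 46280. Median mesendoderm markers were 0 CPM in somatic-like and 17.7 CPM in developmental-like cells, and median placental markers 78.7 and 21.8 CPM. The marker genes were left out of the fit, and none is a member.

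In developmental-like cells more members were called higher than lower. Of 81 nuclear members 37 were higher (45.7%) and 6 lower (7.41%), against 35.1% and 35.2% of all 12755 genes tested, and the median log2 fold change was 0.24 over nuclear members and 0.02 over all genes. Of 13 mitochondrially encoded members 7 were higher (53.8%) and none lower. The nuclear members took a larger share of UMIs in the developmental-like cells of all 7 pools, by 0.31 to 0.50 percentage points, and the mitochondrially encoded members did so by 0.36 to 0.87 points. In D15B, for instance, the latter took 5.75% in somatic-like and 6.42% in developmental-like cells. With the library in place of the pool as the block, so that cells were compared within 1 kind of library, 43 nuclear and 7 mitochondrially encoded members were called. These equal the counts with the pool, which does not show that the same genes were called. Aliquots of the same pool could stand as separate blocks in that fit, and no share of all genes is given for it.

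By complex, 18 of 38 nuclear subunits of complex I were higher and 1 lower, 1 of 4 of complex II was higher, 2 of 8 of complex III were higher and 2 lower, 4 of 11 of complex IV were higher and 1 lower, and 9 of 15 of complex V were higher and 1 lower. UQCRH was higher by 0.89 ± 0.06, NDUFAB1 by 0.87 ± 0.05, COX7C by 0.87 ± 0.07, COX5A by 0.81 ± 0.04 and ATP5SL by 0.69 ± 0.05, each in all 7 pools. NDUFAB1, for example, had 236.5 to 346 CPM in somatic-like and 388 to 658 CPM in developmental-like cells. UQCRHL was higher by 1.16 ± 0.07, but its reads may not be separable from those of UQCRH. SDHD, an anchor of complex II, was higher by 0.63 ± 0.06, whereas SDHA (0.09 ± 0.09), SDHB (0.13 ± 0.06) and SDHC (-0.06 ± 0.07) were not called.

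All 7 nuclear core subunits of complex I, the ones conserved from bacteria, were tested, and 4 of them were higher (57.1%, beside 35.1% of all genes). None was called between D0 and D3, early and late, or D0 and D15, where 13.1%, 21.0% and 26.8% of all genes rose, and the difference between these comparisons was not tested. The members that were lower were few. COX7A1 had 188 CPM in somatic-like and 49.8 in developmental-like cells of D11A, 122 and 19.6 in D11B, 130 and 9.15 in D13A, 308 and 36.9 in D13B, 153 and 11.1 in D15B, 38.0 and 12.8 in D9A, and 36.0 and 15.9 in D9B (-2.53 ± 0.35, edgeR, adjusted p = 0.00013). Somatic-like cells of D11 to D15 thus held 122 to 308 CPM, around the 206 and 218 CPM of D0, and those of D9 36.0 and 38.0 CPM. ATP5E was lower by 1.39 ± 0.11 (log2 fold change -1.39), with 982 to 2293 CPM in somatic-like and 323 to 865 CPM in developmental-like cells. Its copy ATP5EP2 (-1.25), UQCRQ (-0.32), UQCR11 (-0.30) and NDUFB2 (-0.26) were lower as well, each in all 7 pools. The call of NDUFB2 was made in 8 of 16 alternatives. NDUFB3, which fell between D0 and D15, was not called between classes (-0.10 ± 0.09), and ATP5H, which fell on D3, was higher in developmental-like cells (0.55 ± 0.06).

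Of the mitochondrially encoded members MT-ATP8 (0.43 ± 0.09), MT-ND1 (0.39 ± 0.06), MT-ND2 (0.38 ± 0.05), MT-CO2 (0.36 ± 0.04), MT-ND4L (0.35 ± 0.05), MT-ATP6 (0.35 ± 0.06) and MT-ND4 (0.27 ± 0.04) were called. MT-CO1, MT-CO3, MT-ND3 and MT-ND6 were higher in all 7 pools, by 0.18 to 0.21 on the log2 scale, which is under the limit for a call, and MT-ND5 in 5 of 7 pools (0.14 ± 0.06). MT-CYB was lower in all 7 pools (-0.11 ± 0.04) without being called. Without the pool as a block, 21 nuclear and none of the mitochondrially encoded members were called. The share of all genes called without the block is not given, so these counts have no background.

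**Figure D5:**
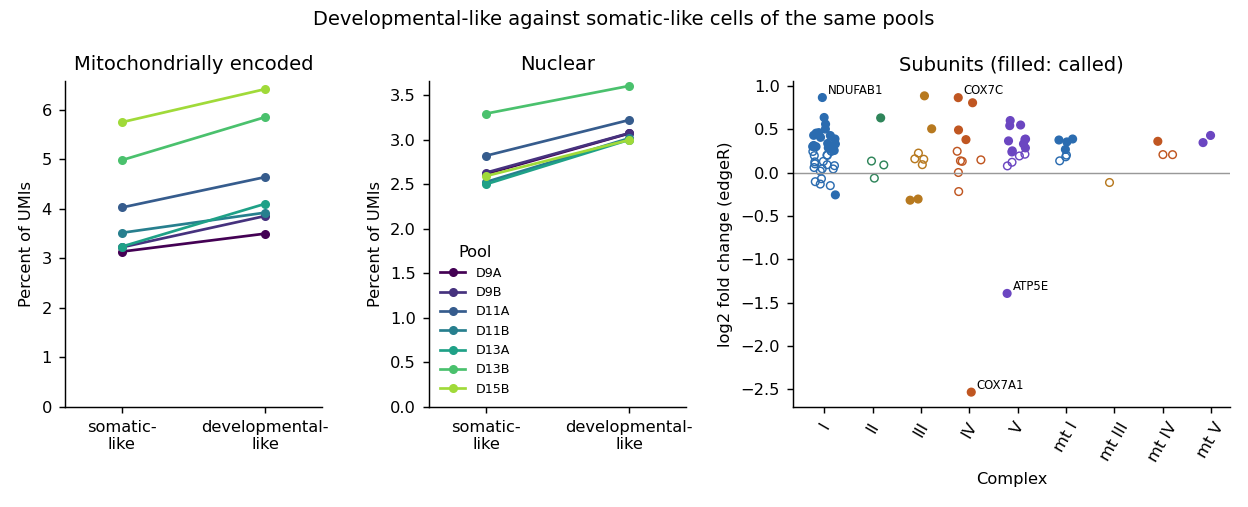
Percent of UMIs from mitochondrially encoded (left) and nuclear (middle) members in somatic-like and developmental-like cells, 1 line per pool, and the log2 fold change of each subunit tested by complex (right, filled if called, mt for mitochondrially encoded). All 7 lines rise in both panels, and COX7A1 with -2.53 and ATP5E with -1.39 lie far below the other subunits.

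The lists of helper genes had these counts in developmental-like cells, beside 35.1% of all genes higher and 35.2% lower, and the difference between lists was not tested. Of 77 mitochondrial ribosomal protein genes 59 were higher (76.6%) and 3 lower, of 27 genes of mitochondrial DNA expression 22 were higher (81.5%) and 1 lower, of 21 assembly factors of complex IV 15 were higher (71.4%) and 2 lower, and of 16 of complex I 9 were higher (56.2%) and 2 lower. Of 19 genes of the citric acid cycle 9 were higher (47.4%) and 4 lower (21.1%). Of the 12 heat shock and dissociation genes 2 were higher (16.7%) and 7 lower (58.3%), and their part in the class differences of the members was not tested. TFAM was higher by 1.31 ± 0.12, CYCS by 0.77 ± 0.06 and COX4I1 by 0.33 ± 0.05.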

How the data were processed

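Single-cell 3′ RNA-seq (10x) of 22 libraries from 16 pools and 8 days was used. The deposited values are raw UMI counts per gene and barcode, made by the authors with Cell Ranger 2.2 on hg38, without normalization and before their filters. Aliquots of 1 pool were summed. The limits were those of the study, applied to all cells without its subsampling to equal numbers per day: a minimum of 1000 genes and a maximum of 10% mitochondrial UMIs for a cell, and detection in 5% of the cells left for a gene. No doublet caller was run, and doublets were not removed. UMI sums per pool were compared with edgeR 4.0.16 in R 4.3.3 (quasi-likelihood, TMM, all 16 pools in 1 fit, days as groups; for classes, pool as a block), with adjustment over all genes tested. The scripts were tested on simulated data. Near-copies were aligned with blastn 2.17.0, and tables and figures were made in Python 3.11.15 with pandas 2.3.3 and matplotlib 3.10.9.

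The members and lists were chosen with earlier results of these data known. Genes are named by rule: all mitochondrially encoded members, the SDH genes, the alternative subunits, and per comparison the 6 largest rises and falls among nuclear members called with at least 10 CPM in the higher group; of other lists the 2 largest called changes each way between D0 and D15. Named after their values were seen were NDUFB9, ATP5S and ATP5SL on D15, COX5B and ATP5S late against early, NDUFB3 and ATP5H between classes, ATP5E on D3, NDUFA13 and ATP5I between aliquots, MALAT1, and CYCS, CYC1, COX4I1 and TFAM outside D15. The 2 kinds of library, the limit of 30 CPM of NME2 between them, the fits within them and the library as a block were chosen after seeing the data. In the fits within a kind, and between classes with the library as the block, single libraries and not pools were the replicates. Both aliquots of D5A and both of D5B thus counted apart among high-NME2 libraries, so p-values there do not measure the spread between pools alone. Alternatives were DESeq2, DESeq2 size factors in edgeR, no gene filter, no mitochondrial limit, mitochondrial genes left out of totals, an adjusted p below 0.05 with no fold limit, each pool left out, a block for the letter of the pool, a fit of just the pools compared, and other class limits. Pool letters did not pair pools.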

Additional observations from a re-analysis of the deposited data

How the results depend on the processing

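Counts of called members moved by more than 1.5 times as follows, and where no construction shows it the cause was not tested. Shares of all genes called are given only for the main fit and the fits within a kind of library. Counts from other fits thus have no background to be read against. With an adjusted p below 0.05 and no limit on the fold, nuclear calls were 11 on D3 against D0 (7 in the report), 22 late against early (13), 27 on D15 (14) and 2 over the adjacent intervals (0), and mitochondrial calls were 1 on D3 (0), 8 on D15 (4) and 12 between classes (7). Without the gene filter there were 11 nuclear and 3 mitochondrial calls on D3, 3 nuclear calls over the intervals and 0 mitochondrial calls late against early (1). With only the pools compared in the fit, nuclear calls were 0 on D3 and 31 on D15, and mitochondrial calls 0 late against early and 12 on D15. Over the intervals DESeq2, DESeq2 size factors and no limit on mitochondrial UMIs each gave 1 nuclear call. The percent of UMIs from mitochondrially encoded members on D15 minus D0 (2.82) was 3.33 without that limit and 3.42 over all barcodes. Among low-NME2 libraries nuclear calls were 47 on D3 and 22 late against early, and mitochondrial calls 8 and 5. Among high-NME2 libraries they were 6 and 0 late against early, with 1 nuclear call over the intervals. With NME2 as a covariate there were 12 nuclear calls on D3, 4 nuclear and 1 mitochondrial over the intervals, and 3 mitochondrial late against early. Leaving out each pool in turn, nuclear calls ranged from 0 to 10 on D3, from 5 (without D9B) to 14 late against early, from 5 to 21 on D15, from 0 to 1 over the intervals and from 39 to 44 between classes. Mitochondrial calls ranged from 0 to 1 late against early, from 0 to 6 on D15 and from 6 to 7 between classes, and stayed at 0 on D3 and over the intervals. The percent on D3 minus D0 (0.59) ranged from -0.32 to 1.5. For members called in the report, 1759 values under alternatives held 1479 on the same side of the threshold, 280 that lost the call and 0 that changed direction. These members were chosen by their calls in the same data. Of the values, 974 came from fits with 1 pool left out, which share all other pools with the main fit. The count of 0 is thus no independent support for the directions.

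With the letter of the pool as a replicate block, nuclear calls were 7, 14, 15 and 0 on D3, late against early, on D15 and over the intervals, and mitochondrial calls 0, 1, 4 and 0, so that no count moved by more than 1.5 times. Deviations of pools with the same letter correlated by -0.412 to 0.812 over 28 pairs of days (median -0.027), and the letters name pools only. Without the pool as a block between classes, nuclear calls were 21 (43 with it) and mitochondrial calls 0 (7).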
